A study of Mus musculus with 9 samples.

Results

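Fc receptors bind the constant part of antibodies and pass the signal of an immune complex to the leukocyte that carries them. They were followed here in the blood of 9 C57BL/6 mice as 7 genes of the 18194 genes measured, namely Fcgr1, Fcgr3, Fcgr4, Fcer1g, Fcgr2b, Fcer2a and Fcgrt. The genes were taken by name as the Fc receptors of blood leukocytes, and each was read from its probe set with exactly 1 gene symbol and the highest mean over the 9 arrays. All 7 were measured, and no filter on low values was applied. There were 3 groups of 3 mice, 8 to 9 weeks old with a mean weight of 25 g, and 1 array per mouse. PT + HS mice received a polytrauma (PT) of head injury, femoral fracture and blunt chest trauma and were bled from 1 h after the trauma to a mean arterial pressure of 30 mmHg, which was held for 60 min before fluid of 4 times the drawn volume was given over 30 min. PT mice received the polytrauma without the hemorrhagic shock (HS). Both injured groups were sampled 4 h after the trauma under continued sevoflurane, with buprenorphine and, per the methods, arterial and venous catheters, and norepinephrine was adjusted to hold the pressure. Control mice (Ctrl) had no manipulation and were bled as soon as they were anesthetized, so that trauma, anesthesia time, analgesia and catheters cannot be told apart in a difference from Ctrl. Blood was lysed whole in stabilizing tubes, so the arrays also hold platelet and reticulocyte RNA.

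Most receptors for IgG on myeloid cells are activating. Fcgr1 (CD64, high affinity), Fcgr3 (CD16, low affinity) and Fcgr4 (which in the mouse also binds IgE) encode ligand-binding chains of neutrophils, monocytes or macrophages, and Fcgr3 is also carried by NK cells. Their surface level and signal depend on the common gamma chain Fcer1g, which carries an activation motif (ITAM) and recruits the kinase SYK. Fcgr2b encodes the inhibitory IgG receptor, which carries an inhibition motif (ITIM), recruits the phosphatase SHIP and is found on B cells and on myeloid cells. Fcer2a encodes CD23, the low-affinity IgE receptor of mature B cells. Fcgrt encodes the heavy chain of the neonatal Fc receptor, which pairs with beta-2-microglobulin and protects IgG from breakdown.

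Promoter windows are shown for 4 genes that passed against Ctrl and held a match to the letters searched. These are the 3 activating IgG receptors, higher in PT + HS, and Fcer2a, lower in both injured groups. Fcgr2b also passed, as higher in both injured groups, but its window held no match and is not shown. RefSeq promoter windows of 300 bases (250 before to 50 after the start, build GRCm38.p6) were present for 7 of 7 genes, with 10 windows in all. Capitals mark the letters TTCCTC, the reverse complement of GAGGAA, the core bound by the myeloid factor PU.1, in the first 3 windows. The capitals TTCCCAGAA in the Fcgr1 window match TTCNNNGAA, the letters of an interferon-gamma activated site, and the capitals TTCCCAAGAA in the Fcer2a window match the letters of a STAT6 site (TTC, any 4 bases, GAA). Both strands were searched, no match overlapped another, and the STAT6 letters were added after the values had been seen. The windows were Fcgr1 at chr3:96293920-96294219 (minus strand), Fcgr3 at chr1:171059354-171059653 (minus strand), Fcgr4 at chr1:171018676-171018975 (plus strand) and the second of 3 Fcer2a windows at chr8:3690812-3691111 (minus strand), each written 5′ to 3′ along its gene.
Fcgr1: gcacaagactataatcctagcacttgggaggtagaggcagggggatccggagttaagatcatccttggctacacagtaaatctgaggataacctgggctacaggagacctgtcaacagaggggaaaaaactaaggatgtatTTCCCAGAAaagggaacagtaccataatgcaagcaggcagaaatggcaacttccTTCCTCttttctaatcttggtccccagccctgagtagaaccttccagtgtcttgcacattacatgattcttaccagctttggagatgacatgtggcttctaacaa
Fcgr3: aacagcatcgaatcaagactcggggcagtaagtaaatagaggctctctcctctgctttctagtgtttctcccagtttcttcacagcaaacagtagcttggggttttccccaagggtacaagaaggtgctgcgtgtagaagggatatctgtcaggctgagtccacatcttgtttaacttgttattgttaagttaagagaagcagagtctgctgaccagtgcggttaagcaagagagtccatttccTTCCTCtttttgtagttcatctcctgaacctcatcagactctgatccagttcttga
Fcgr4: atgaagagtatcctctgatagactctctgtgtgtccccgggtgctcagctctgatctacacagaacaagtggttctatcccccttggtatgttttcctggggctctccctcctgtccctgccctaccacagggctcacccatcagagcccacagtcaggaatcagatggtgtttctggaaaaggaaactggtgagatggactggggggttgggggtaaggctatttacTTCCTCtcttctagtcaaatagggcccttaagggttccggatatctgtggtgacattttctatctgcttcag
Fcer2a: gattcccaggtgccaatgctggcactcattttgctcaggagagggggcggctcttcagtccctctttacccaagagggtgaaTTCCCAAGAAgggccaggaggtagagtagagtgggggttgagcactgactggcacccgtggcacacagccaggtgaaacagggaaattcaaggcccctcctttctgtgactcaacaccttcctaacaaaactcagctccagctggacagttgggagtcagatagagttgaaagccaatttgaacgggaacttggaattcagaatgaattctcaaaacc

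GAGGAA was found in 3 of the 7 genes, always on the strand opposite to the gene. It lay at -55 to -50 from the start in Fcgr1, at -6 to -1 in the Fcgr3 window shown, and at -22 to -17 in Fcgr4. In the second Fcgr3 window, whose start is shifted along the same stretch, the same letters lay at -15 to -10. Of 32851 promoter windows of this length, 28.3% held GAGGAA, and so did 31.2% of the 27025 genes in at least 1 window. TTCNNNGAA was found in Fcgr1 alone among the 7 genes, at -109 to -101, and in 8.30% of all windows and 9.55% of genes. The STAT6 letters were found in 1 of 3 Fcer2a windows and in no other window of the 7 genes, at -168 to -159, and in 6.95% of all windows and 8.01% of genes. The windows of Fcer1g, Fcgr2b and Fcgrt held none of the 3 motifs. Fcgr2b, Fcgr4, Fcgr3 and Fcer1g share chromosome 1 within 258.6 kb, whereas Fcgr1 lies on chromosome 3, Fcgrt on chromosome 7 and Fcer2a on chromosome 8. The matches describe letters, and binding was not measured.

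Expression is given on the log2 scale of the deposited values, a robust multiarray average by the authors, so that a difference of 1 unit is a doubling. Array medians lay between 3.63 and 3.76, and precision is limited by having 3 arrays a group. PT replicate 2 differed from the rest, since its correlations with the remaining arrays were 0.900 to 0.944 and all others were 0.958 or higher. The median SD of a gene was 0.21 in PT + HS, 0.31 in PT and 0.22 in Ctrl. A gene is said to have passed when limma, fitted to all 9 arrays and 18194 genes, gave p under 0.05 before adjustment together with a 1.5-fold difference or more. These thresholds follow the study's methods, and the p adjusted over all genes is given beside it. The comparisons of PT + HS and of PT with Ctrl share the same 3 Ctrl arrays.

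In PT + HS blood 5 of the 7 genes passed against Ctrl, with Fcgr1, Fcgr3, Fcgr4 and Fcgr2b higher and Fcer2a lower. Of all genes 3.28% passed in that comparison, 1.99% higher and 1.29% lower. In PT blood 4 of 7 passed against Ctrl, with Fcgr1, Fcgr3 and Fcgr2b higher and Fcer2a lower, where 3.67% of all genes passed, 1.41% higher and 2.26% lower. Between PT + HS and PT none of the 7 genes passed, where 1.12% of all genes passed, 0.726% higher and 0.396% lower. For injured mice, taken as the mean of PT + HS and PT, 5 of 7 passed against Ctrl in the directions seen for PT + HS, where 3.25% of all genes passed, 1.65% higher and 1.60% lower. At an unadjusted p under 0.05 alone limma called 5, 4, 0 and 5 of the 7 genes in these 4 comparisons, where it called 4.86%, 5.82%, 2.87% and 5.86% of all genes. The values of the groups did not overlap for 4 of the 7 genes between PT + HS and Ctrl (13.2% of all genes), for 3 between PT and Ctrl (9.44%), for 0 between PT + HS and PT (7.17%) and for 3 between injured mice and Ctrl (3.14%). None of the 7 had an adjusted p under 0.05, which 0.00550% of all genes had in PT + HS against Ctrl, 0.0110% in injured mice against Ctrl and no gene in the other comparisons, and the smallest adjusted p of the 7 genes was 0.120, for Fcgr3 in injured mice. Without PT replicate 2 the counts were 5 for PT + HS against Ctrl (4.57% of all genes), 3 for PT against Ctrl (6.14%), 0 for PT + HS against PT (4.70%) and 5 for injured mice against Ctrl (4.12%).

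**Figure D1:**
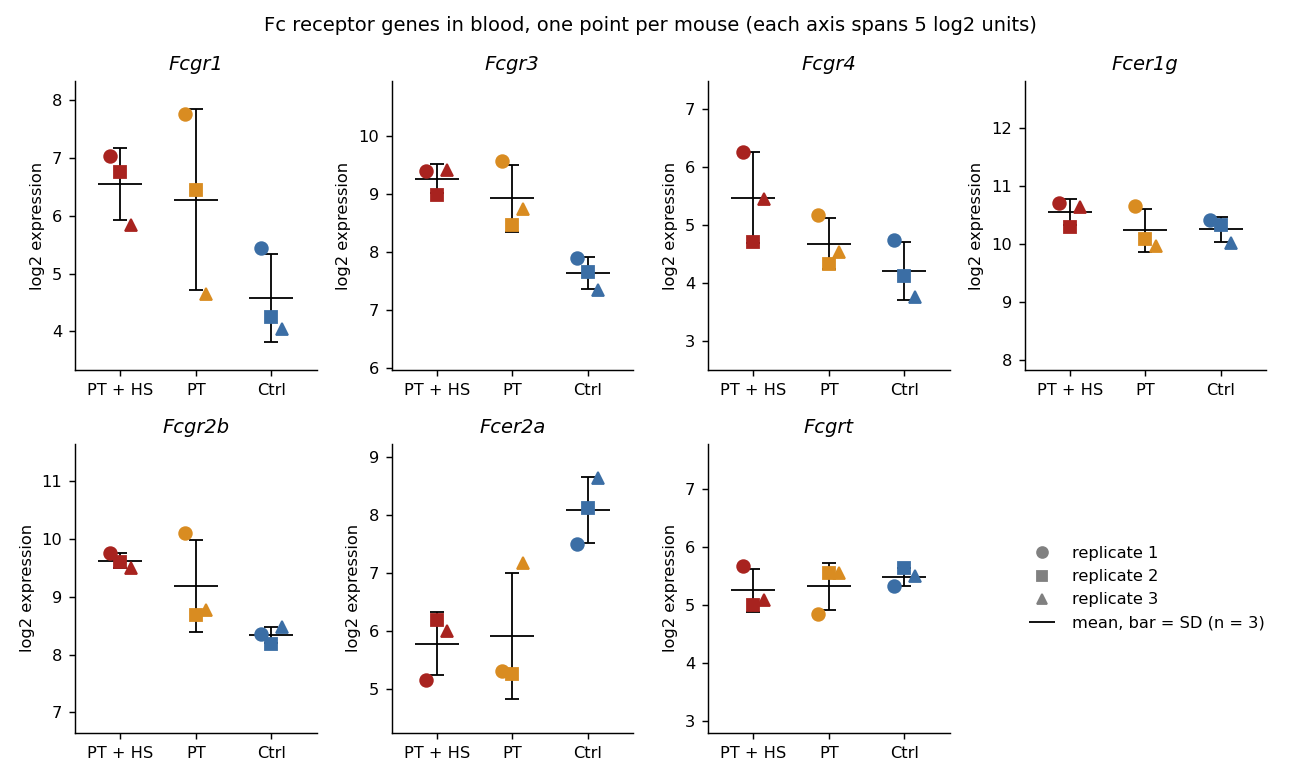
Log2 expression of the 7 Fc receptor genes (y axis, each spanning 5 log2 units) in PT + HS, PT and Ctrl blood (x axis), with 1 point per mouse, shapes for replicate numbers, and lines for the mean with its SD (n = 3). Fcgr3 and Fcgr2b of all injured mice lie above all Ctrl mice, Fcer2a of all injured mice lies below them, and Fcer1g and Fcgrt overlap.

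Fcgr3, the low-affinity activating IgG receptor, rose in both injured groups. Its log2 level was 9.40, 8.98 and 9.42 in PT + HS, 9.57, 8.46 and 8.75 in PT, and 7.90, 7.66 and 7.34 in Ctrl. Every injured mouse lay above every Ctrl mouse, and the PT + HS and PT values overlapped. Against Ctrl it was 3.10-fold higher in PT + HS (log2 difference 1.63, SE 0.29, unadjusted p = 0.000224, adjusted p = 0.189). In PT it was 2.45-fold higher (log2 difference 1.29, SE 0.29, unadjusted p = 0.00124, adjusted p = 0.394). Fcgr3 passed against Ctrl in both injured groups whichever array was left out, with differences of 1.49 to 1.78 for PT + HS and 0.97 to 1.52 for PT.

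Fcgr1, the high-affinity receptor that interferon-gamma is known to induce, rose as much on average but with a wide spread. Its log2 level was 7.04, 6.76 and 5.84 in PT + HS, 7.75, 6.44 and 4.64 in PT, and 5.44, 4.24 and 4.04 in Ctrl. Ctrl replicates 2 and 3 lay under the median of 4.29 over genes. All PT + HS mice lay above all Ctrl mice, while PT replicate 3 lay below Ctrl replicate 1. The difference from Ctrl was 1.97 in PT + HS (SE 0.70, unadjusted p = 0.0181, adjusted p = 0.821) and 1.71 in PT (SE 0.70, unadjusted p = 0.0346, adjusted p = 0.811). For PT it no longer passed without PT replicate 1 (0.97), PT replicate 2 (1.62), Ctrl replicate 2 (1.54) or Ctrl replicate 3 (1.44). For PT + HS it no longer passed without PT + HS replicate 1 (1.73), PT + HS replicate 2 (1.87), Ctrl replicate 2 (1.81) or Ctrl replicate 3 (1.7). A further probe set of Fcgr1, 1436625_at, gave 0.75 for PT + HS, which passed, and 0.28 for PT, which did not. On this probe set the PT + HS mice, at 4.86, 5.11 and 4.93, lay above the Ctrl mice, at 4.24, 4.23 and 4.18.

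Fcgr4, whose product is found on neutrophils and on non-classical monocytes of the mouse, passed for PT + HS and not for PT. Its log2 level was 6.27, 4.70 and 5.44 in PT + HS, 5.17, 4.32 and 4.53 in PT, and 4.74, 4.12 and 3.76 in Ctrl. The Ctrl mean of 4.20 lay under the median of 4.29 over genes. The groups overlapped, since PT + HS replicate 2 lay just below Ctrl replicate 1. The difference from Ctrl was 1.27 in PT + HS (SE 0.40, unadjusted p = 0.0107, adjusted p = 0.735) and 0.47 in PT (95% interval -0.43 to 1.37, adjusted p = 0.9989). Between PT + HS and PT the difference was 0.80, the largest of the 7 genes, with a 95% interval of -0.10 to 1.7 (unadjusted p = 0.0767), so that the injured groups were not shown to differ. It passed when PT replicate 1 (1.04) or PT + HS replicate 2 (1.18) was left out.

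Fcer1g, the signaling chain that these 3 receptors share, stayed close to its Ctrl level. It was 10.72, 10.29 and 10.64 in PT + HS, 10.66, 10.09 and 9.96 in PT, and 10.42, 10.33 and 10.02 in Ctrl. All 3 groups overlapped. The difference from Ctrl was 0.29 in PT + HS (95% interval -0.21 to 0.80, unadjusted p = 0.222) and -0.020 in PT (95% interval -0.52 to 0.48, unadjusted p = 0.932), so that a 2-fold change lies outside both intervals. Within each mouse, the change of Fcgr3 from the Ctrl mean exceeded that of Fcer1g by 1.30, 1.31 and 1.40 in PT + HS, 1.53, 0.99 and 1.41 in PT, and 0.10, -0.05 and -0.05 in Ctrl. In whole blood RNA the measured levels of Fcgr3 and Fcer1g thus moved by unequal amounts in all 6 injured mice. Fcer1g also serves receptors of NK cells and platelets, and the part of those cells in its level was not tested.

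Fcgr2b, the inhibitory IgG receptor, moved with the activating receptors. Its log2 level was 9.76, 9.61 and 9.5 in PT + HS, 10.10, 8.68 and 8.77 in PT, and 8.35, 8.19 and 8.47 in Ctrl. Every injured mouse lay above every Ctrl mouse, PT replicates 2 and 3 by little. The difference from Ctrl was 1.28 in PT + HS (2.44-fold, SE 0.33, unadjusted p = 0.00324, adjusted p = 0.492), and Fcgr2b passed there whichever array was left out. In PT it was 0.85 (1.80-fold, SE 0.33, unadjusted p = 0.0290, adjusted p = 0.803). It no longer passed without PT replicate 1 (0.39), Ctrl replicate 1 (0.86) or Ctrl replicate 2 (0.77). The change of Fcgr3 exceeded that of Fcgr2b by 0.35, 0.07 and 0.62 in PT + HS, 0.17, 0.48 and 0.68 in PT, and 0.25, 0.17 and -0.42 in Ctrl, and these values overlapped between the groups.

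Fcgr2b was covered by 5 probe sets, which disagreed in size. The probe set used, 1435477_s_at, bears a suffix by which the manufacturer marks probes that also match transcripts of other genes. Of the others, 1451941_a_at gave 2.32 in PT + HS and 1.5 in PT against Ctrl and passed in both. Its values were 8.30, 7.89 and 7.99 in PT + HS, 8.64, 5.93 and 7.17 in PT, and 6.51, 5.10 and 5.63 in Ctrl, so that PT replicate 2 fell within the Ctrl range. The probe set 1435476_a_at gave 0.81 in PT + HS, which passed, and 0.55 in PT, which missed the fold threshold. The probe set 1455332_x_at gave 0.50 in PT + HS and 0.35 in PT, and 1447622_at, dim on all arrays with a mean of 2.56, gave -0.026 in PT + HS and 0.098 in PT, and neither passed. Fcgr2b and Fcgr3 are close paralogs, and whether their probe sets take up each other's transcripts was not tested.

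Fcer2a, the IgE receptor of B cells, showed the largest change of the 7 genes. Its log2 level was 5.15, 6.18 and 5.99 in PT + HS, 5.30, 5.25 and 7.16 in PT, and 7.50, 8.12 and 8.63 in Ctrl. Every injured mouse lay below every Ctrl mouse, with PT replicate 3 closest to them. Against Ctrl it was 4.95-fold lower in PT + HS (log2 difference -2.31, SE 0.52, unadjusted p = 0.00124, adjusted p = 0.365). In PT it was 4.52-fold lower (log2 difference -2.18, SE 0.52, unadjusted p = 0.00184, adjusted p = 0.413). It passed in both comparisons whichever array was left out, with differences of -2.60 to -2.0 for PT + HS and -2.81 to -1.85 for PT. The second probe set, 1451713_a_at, gave -1.82 in PT + HS and -1.95 in PT, and both passed. In whole blood, fewer cells of a type and less RNA per cell cannot be told apart.

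Markers of B cells were lower on average in both injured groups. Against Ctrl, 1.29% of all genes fell in PT + HS and 2.26% in PT. Of the 10 measured B-cell markers of 11 listed, 8 fell in PT + HS and 9 fell in PT, with median differences of -1.39 and -1.41 where the median over all genes was -0.014 and -0.00025. The log2 of their summed level ranged from 10.03 to 10.52 in PT + HS, from 9.10 to 11.39 in PT and from 11.37 to 12.29 in Ctrl. PT replicate 3, the PT mouse with the highest Fcer2a, was also the highest in these markers. It lay within the Ctrl range, just above Ctrl replicate 1. The dimmest of them, Pax5, averaged 3.70, under the median of 4.29 over genes, and it did not pass. Cd79b, a chain of the B-cell receptor, was at -2.10 in PT + HS and -1.80 in PT, and Cxcr5, the receptor that guides B cells into follicles, at -2.11 in PT + HS and -1.99 in PT, and all 4 values passed. The part of these markers in the Fcer2a difference was not tested.

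Markers of the cells that carry the activating receptors moved in more than a single direction. Against Ctrl, 1.99% of all genes rose and 1.29% fell in PT + HS, and 1.41% rose and 2.26% fell in PT. Of 10 measured neutrophil markers of 12 listed, 6 rose in PT + HS and 5 rose in PT and none fell, with median differences of 1.40 and 1.15. The log2 of their summed level ranged from 13.24 to 14.52 in PT + HS, from 12.80 to 14.17 in PT and from 12.07 to 12.98 in Ctrl, and the dimmest, Ltf, averaged 5.38. By their mean log2 change from the Ctrl mean, Ctrl replicate 1 (1.02) lay above PT + HS replicate 2 (0.86) and PT replicate 2 (0.33). Of 9 measured monocyte markers of 11 listed, 1 rose and 1 fell in PT + HS and 1 rose and 3 fell in PT, with median differences of -0.037 and -0.56. Ccr2, the receptor of classical monocytes for CCL2, rose (1.64 in PT + HS, 1.36 in PT), whereas Cx3cr1, higher on non-classical monocytes, fell (-0.69 in PT + HS, -1.29 in PT). The summed monocyte level ranged from 11.61 to 11.72 in PT + HS, from 10.72 to 11.94 in PT and from 11.01 to 11.41 in Ctrl, and the dimmest marker, Adgre1, averaged 5.46. Of 6 measured NK-cell markers, 2 fell in PT + HS and 3 in PT, while none of 6 T-cell and 4 red cell precursor markers passed against Ctrl. In PT + HS 1 of 6 dendritic cell markers rose, and in PT 2 of 8 eosinophil and basophil and 1 of 6 platelet markers fell. All 6 platelet markers had negative differences in both groups, with medians of -0.12 in PT + HS and -0.38 in PT. The part of these lists in the receptor differences was not tested.

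Fcgrt, the neonatal receptor, did not pass in any comparison. Its log2 level was 5.68, 5.00 and 5.08 in PT + HS, 4.85, 5.55 and 5.56 in PT, and 5.32, 5.64 and 5.5 in Ctrl. The groups overlapped. The difference from Ctrl was -0.24 in PT + HS (95% interval -0.80 to 0.33) and -0.17 in PT (95% interval -0.73 to 0.40), so that a 2-fold change lies outside both intervals.

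Added hemorrhagic shock was compared with polytrauma alone for each gene, and the 95% intervals are wide. Bleeding, the fluid given after it and any norepinephrine cannot be told apart in this comparison. The paper gives a norepinephrine amount for PT + HS mice alone. Fcgr1 differed by 0.27 (-1.29 to 1.82), Fcgr3 by 0.34 (-0.30 to 0.99), Fcer1g by 0.31 (-0.19 to 0.82), Fcgr2b by 0.44 (-0.31 to 1.18), Fcer2a by -0.13 (-1.28 to 1.02) and Fcgrt by -0.068 (-0.63 to 0.50). These 6 genes overlapped between the groups, and the adjusted p was 1.0 for each. A difference of 2-fold lies inside the intervals of Fcgr1, Fcgr4, Fcgr2b and Fcer2a and outside those of Fcgr3, Fcer1g and Fcgrt. Fcgr3 and Fcgr2b changed with PT replicate 1, without which Fcgr3 was 0.66 and Fcgr2b 0.90 higher in PT + HS and both passed. Between these groups, where Fcgr4 differed by 0.80, the monocyte markers had positive differences in 9 of 9 genes and a median of 0.53 where the median over all genes was -0.0031. Positive too were 8 of 10 neutrophil (median 0.41), 6 of 6 NK-cell (0.27) and 6 of 6 platelet markers (0.26). The share was 5 of 8 for eosinophil and basophil, 4 of 6 for dendritic cell and 4 of 10 for B-cell markers. It was 1 of 6 for T-cell and 0 of 4 for red cell precursor markers. Of the monocyte markers, 2 passed where 1.12% of all genes did, namely Nr4a1 (0.86), a nuclear receptor needed for non-classical monocytes, and Treml4 (0.72), a receptor of the same cells. The NK-cell granzyme Gzma (1.03) and Gata2 (0.64), a factor of basophils, also passed, and no gene of the remaining marker lists did. Nr4a1, Treml4, Gzma and Gata2 all had negative differences from Ctrl in both injured groups. Nr4a1 was at -0.47 in PT + HS and -1.32 in PT, and Treml4 at -0.45 and -1.17. Fcgr4 was at 1.27 in PT + HS and 0.47 in PT against Ctrl. The part of these markers in the Fcgr4 difference was not tested.

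**Figure D2:**
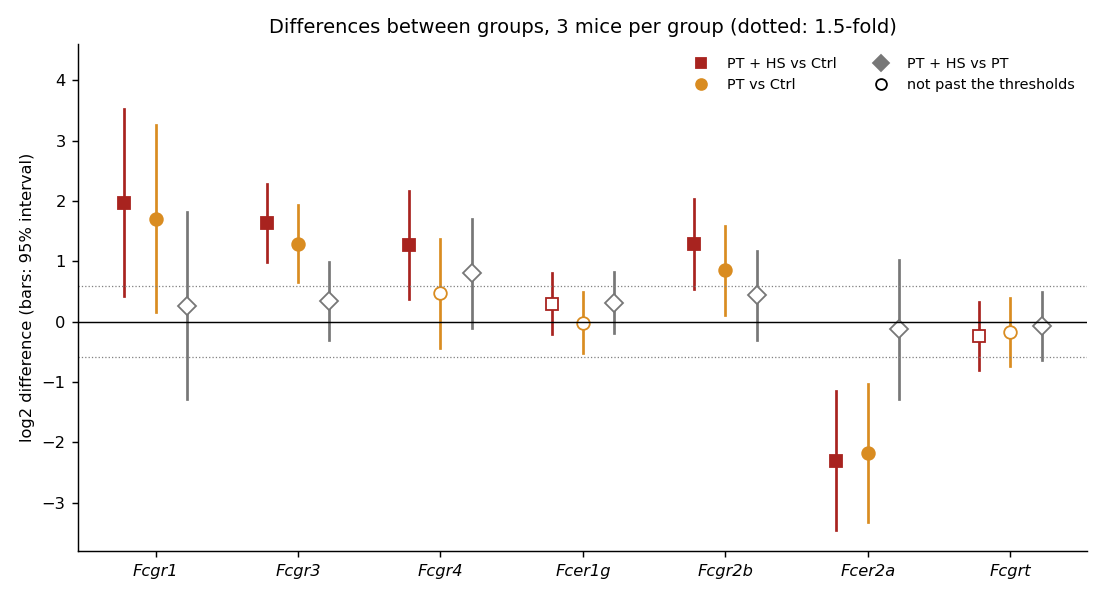
Log2 difference (y axis) of each Fc receptor gene (x axis) for PT + HS against Ctrl, PT against Ctrl and PT + HS against PT, with 95% intervals of the limma fit, filled symbols for genes past the thresholds and dotted lines at 1.5-fold. Fcgr1, Fcgr3 and Fcgr2b are filled above 0 and Fcer2a below 0 for both injured groups, Fcgr4 is filled for PT + HS against Ctrl alone, and no symbol is filled for PT + HS against PT.

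Set against each other within each mouse, the myeloid receptors and Fcer2a moved apart in all 6 injured mice and also in Ctrl replicate 1. The mean change of Fcgr1, Fcgr3 and Fcgr4 from the Ctrl mean was 2.10, 1.34 and 1.43 in PT + HS, 2.03, 0.94 and 0.50 in PT, and 0.56, -0.13 and -0.42 in Ctrl. The change of Fcer2a was -2.93, -1.90 and -2.10 in PT + HS, -2.78, -2.83 and -0.92 in PT, and -0.59, 0.036 and 0.55 in Ctrl. PT replicate 3 was the injured mouse with the smallest change in both. Ctrl replicate 1 differed from the Ctrl mean in the same directions, and its mean for the activating receptors (0.56) was above that of PT replicate 3 (0.50). With Fcer1g added to the 3 activating receptors, the gap to Fcer2a was 4.62, 2.92 and 3.26 log2 units in PT + HS, 4.40, 3.49 and 1.22 in PT, and 1.05, -0.12 and -0.93 in Ctrl. The gap of Ctrl replicate 1 (1.05) was thus close to that of PT replicate 3 (1.22). The mean change of the 10 B-cell markers was -1.70, -1.24 and -1.45 in PT + HS, -1.46, -2.28 and -0.41 in PT, and -0.47, 0.08 and 0.39 in Ctrl. Here Ctrl replicate 1 (-0.47) lay below PT replicate 3 (-0.41). These values describe the mice, and no test was made of them.

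**Figure D3:**
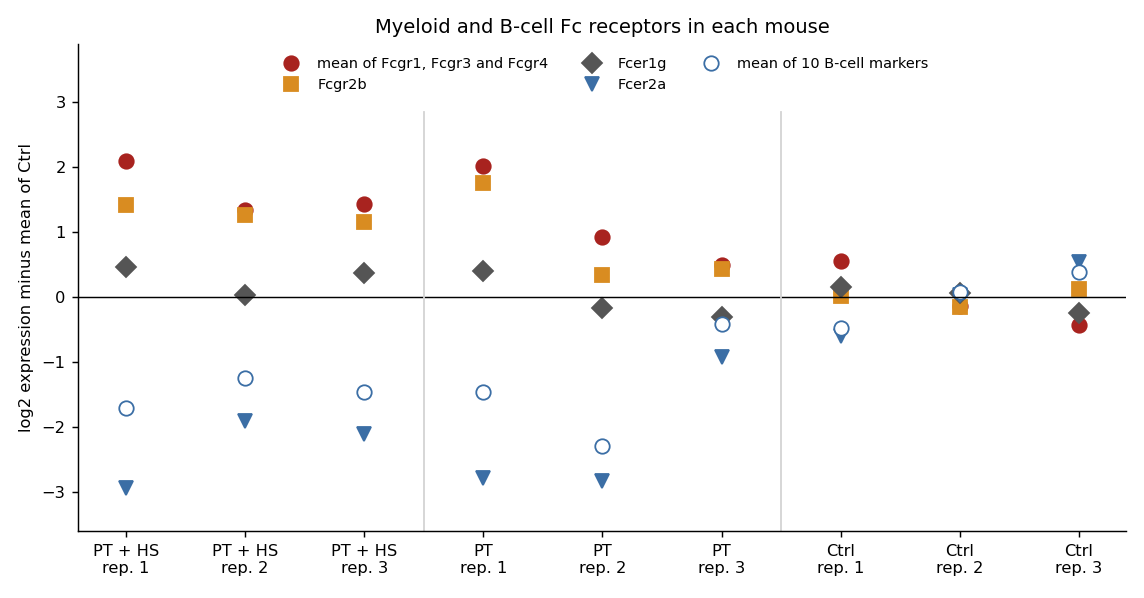
Log2 expression minus the Ctrl mean (y axis) in each of the 9 mice (x axis, by group and replicate) for the mean of Fcgr1, Fcgr3 and Fcgr4, for Fcgr2b, Fcer1g and Fcer2a, and for the mean of 10 B-cell markers. In every injured mouse the activating receptors lie above 0 and Fcer2a and the B-cell markers below it, with the smallest gap in PT replicate 3. Ctrl replicate 1 shows the same signs, and Fcer1g stays between -0.29 and 0.46 in all mice.

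Other Fc receptors and their relatives, from a list of 11 genes of which 9 were measured, included lower genes and no higher one. In PT + HS 2 fell and in PT 4 fell, where 1.29% and 2.26% of all genes fell, with median differences of -0.25 and -0.48. Fcrla, an intracellular Fc receptor-like protein of B cells, fell by 2.23 in PT + HS (unadjusted p = 0.00489) and by 1.85 in PT (unadjusted p = 0.0137). Fcrl1, a B-cell surface relative, fell by 1.32 in PT + HS (unadjusted p = 0.0312) and by 1.37 in PT (unadjusted p = 0.0262). Fcmr, the IgM receptor, fell by 1.51 in PT (unadjusted p = 0.0364) and was at -1.36 in PT + HS (unadjusted p = 0.0556). Fcer1a, the high-affinity IgE receptor chain of basophils and mast cells, fell by 0.64 in PT (unadjusted p = 0.00863), with a mean level of 2.79 over the arrays. B2m, the partner of Fcgrt, was at -0.18 in PT + HS and -0.48 in PT. The PT + HS count of 2 was 1 without Ctrl replicate 3, PT + HS replicate 1 or PT + HS replicate 3. The PT count of 4 was 1 without Ctrl replicate 3, PT replicate 1 or PT replicate 2 and 2 without Ctrl replicate 2.

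Receptors that borrow the Fcer1g chain moved in both directions. Among 9 such partners and sister adaptors, 4 rose and 1 fell in PT + HS, and 3 rose and 2 fell in PT, with medians of 0.003 and 0.32. Of all genes 3.28% passed in PT + HS and 3.67% in PT. The myeloid lectin receptors rose: Clec4e (Mincle) by 2.90 in each injured group, Clec4d by 2.01 (PT + HS) and 1.78 (PT), and Clec4n (Dectin-2) by 1.74 (PT + HS) and 1.95 (PT). Ncr1, the activating receptor NKp46 of NK cells, fell by 0.61 with PT + HS and by 0.95 with PT. Gp6, the collagen receptor of platelets, fell by 0.61 in PT and was at -0.07 in PT + HS. Tyrobp, the adaptor DAP12, rose by 0.60 in PT + HS and was at 0.32 in PT. Among the values that passed, the unadjusted p ranged from 0.00036 for Clec4d to 0.035 for Tyrobp, both in PT + HS, and none had an adjusted p under 0.05. The PT + HS count of 5 was 3 without Ctrl replicate 3 or PT + HS replicate 3.

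Downstream of the receptors, of 14 measured ITAM signaling genes of 17 listed, 2 rose and 1 fell in PT + HS and 2 fell in PT, where 3.28% and 3.67% of all genes passed. Gab2, a scaffold of phosphoinositide 3-kinase, rose by 1.39 in PT + HS (unadjusted p = 0.00528) and was at 0.82 in PT, and Fgr, a SRC-family kinase of myeloid cells, rose by 0.67 in PT + HS (unadjusted p = 0.0140) and was at 0.13 in PT. Lat2, an adaptor of B cells and myeloid cells, fell (-0.76 in PT + HS, -1.23 in PT), and Plcg2, a phospholipase, fell by 0.90 in PT and was at -0.56 in PT + HS. Syk itself was at -0.31 in PT + HS and -0.35 in PT and did not pass. Of 10 ITIM signaling genes none passed in PT + HS, while Ptpn6, the phosphatase SHP-1, fell by 0.87 and Csk, which restrains SRC kinases, by 0.62 in PT. Inpp5d, the phosphatase SHIP that Fcgr2b recruits, was at 0.16 in PT + HS and -0.21 in PT. The ITAM count was 5 in PT + HS without Ctrl replicate 1 and 6 in PT without PT replicate 3, and the ITIM count was 1 in PT + HS without Ctrl replicate 1 or PT + HS replicate 3 and 1 in PT without Ctrl replicate 3 or PT replicate 1.

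Of 13 measured regulators of Fc receptor expression, 3 rose and 1 fell in PT + HS and 2 fell in PT. Of all genes 3.28% passed in PT + HS and 3.67% in PT. C5ar1, the receptor of the complement fragment C5a, rose by 0.80 in PT + HS (unadjusted p = 0.00180) and was at 0.31 in PT. Spi1, which encodes PU.1, rose by 0.73 in PT + HS (unadjusted p = 0.0370) and was at 0.48 in PT. The chains of the interleukin-10 receptor went opposite ways, with Il10rb higher by 0.60 in PT + HS and Il10ra lower, at -0.65 in PT + HS and -0.66 in PT, and these values passed. Tgfbr1, a chain of the receptor for transforming growth factor beta, fell by 1.08 in PT and was at -0.043 in PT + HS. The interferon-gamma receptor chains Ifngr1, at 0.22 in PT + HS and 0.46 in PT, and Ifngr2, at 0.24 and -0.095, did not pass, nor did Stat6, at 0.13 and -0.11. The PT + HS count of 4 was 2 without Ctrl replicate 1 and 1 without Ctrl replicate 2, PT + HS replicate 1 or PT + HS replicate 3. The PT count of 2 was 0 without Ctrl replicate 2, 6 without PT replicate 3 and 1 without Ctrl replicate 1, Ctrl replicate 3, PT replicate 2 or PT + HS replicate 2. Between PT + HS and PT no gene of the 5 pathway lists passed with all arrays, and leaving out an array in turn gave counts of 0 to 3 per list.

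**Figure D4:**
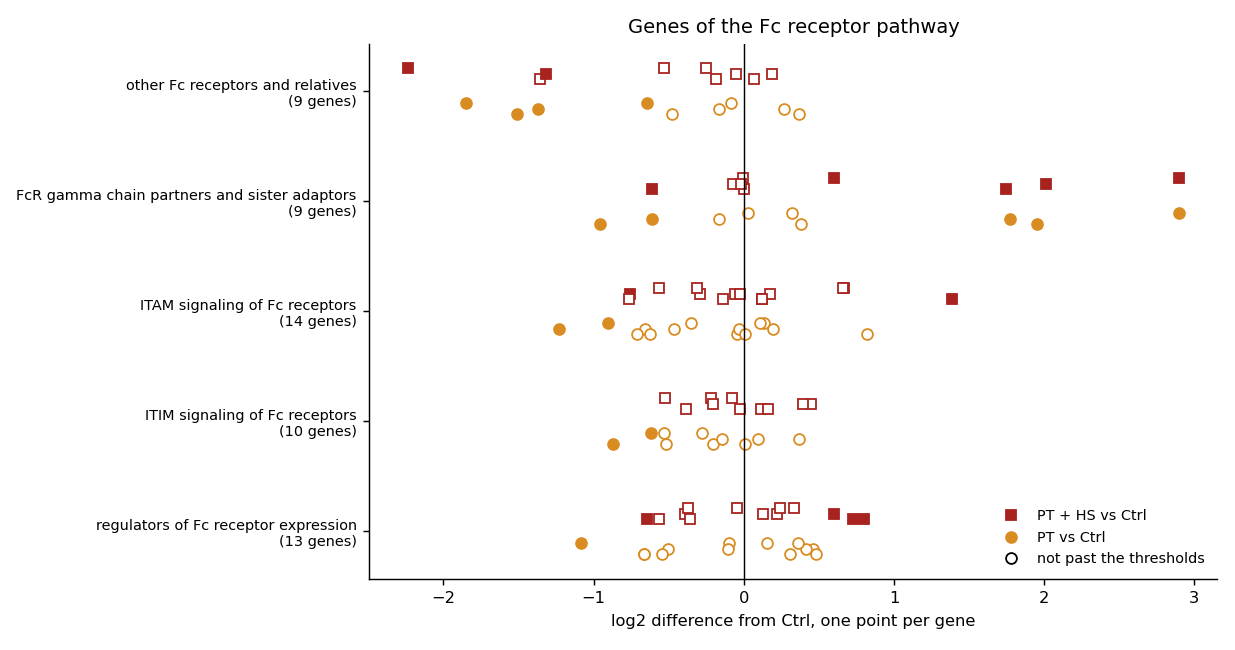
Log2 difference from Ctrl (x axis) of each measured gene of 5 pathway lists (y axis, number of genes in brackets), with squares for PT + HS and circles for PT and filled symbols for genes past the thresholds. The filled points of the other Fc receptors lie at or below -0.64, and the filled points furthest to the right are the lectin receptor Clec4e at 2.90 in both groups.

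Genes with the most similar course were sought by the root mean square of the difference in centered log2 level over the 9 arrays, among 9090 other genes at or above the median level. For Fcer2a these were Srpk3 (0.21), Cxcr5 (0.25), Cd22 (0.28), Cd79b (0.30) and Cd55 (0.31), of which Cxcr5, Cd22 and Cd79b are in the B-cell list. For Fcgr3 they were Fam217b (0.15), Cpne2 (0.16), Hp (0.19), Retnla (0.20) and Casp4 (0.20), of which Hp encodes haptoglobin and Casp4 the inflammatory caspase that senses lipopolysaccharide in the cytosol. For Fcgr2b they were Tmem106a (0.16), Cers6 (0.20), Rab32 (0.21), Smpdl3a (0.22) and Ltbr (0.22), and Ltbr encodes the lymphotoxin beta receptor. For Fcgr4 they were Plin2 (0.23), Ifitm1 (0.28), Basp1 (0.29), B430306N03Rik (0.29) and Cd300c2 (0.29). For Fcgr1 they were Clec4n (0.48), Ifi204 (0.50), Ms4a6c (0.62), Ctsl (0.63) and Ifitm6 (0.64), where Ifi204 is induced by interferon and Ctsl encodes cathepsin L. The arrays these genes share include the array that stands apart, and the measure describes 9 mice.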

How the data were processed

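Blood RNA of 3 PT + HS, 3 PT and 3 Ctrl mice was hybridized, 1 array per animal. The deposited log2 values were made by the authors with robust multiarray average (background correction, quantile normalization, summary per probe set) in Expression Console and BRB-ArrayTools, whose versions the sources used here do not give. Methods and probe set names point to different Affymetrix mouse arrays, and gene names were taken from the annotation that goes with the probe set names. Of 45101 probe sets, 34958 had exactly 1 symbol, and 34754 matched RefSeq through the Entrez ID. Per gene the probe set with the highest mean was used. R 4.3.3 and limma 3.58.1 were used, with 1 mean per group, two-sided moderated tests and Benjamini-Hochberg adjustment over 18194 genes. The fit was tested on simulated data. The Fc receptor genes, the gene lists, the tests and the alternatives were chosen with earlier results of these data known. Named are all 7 genes, up to 4 passing genes per list and direction, and the 5 most similar genes per passing receptor. Some genes of the lists were not analysed here. Protein sequences were not used here.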

Additional observations from a re-analysis of the deposited data

How the results depend on the processing

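Over 497 values of the 7 genes under alternative settings, 446 kept direction and side of the thresholds, 25 no longer passed, 6 newly passed and 20 changed sign, each of the 20 a difference that did not pass. Fcgr3 and Fcer2a passed against Ctrl in PT + HS and in PT under all 18 alternatives. With an adjusted p under 0.05 as the criterion the count was 0 for PT + HS, PT and injured mice against Ctrl. The count for PT against Ctrl was 2 under the methods' t-test and 2 with the arrays of both groups alone, Fcgr1 and Fcgr2b no longer passing in either. With the mean of its probe sets Fcgr1 no longer passed in PT (0.99), and with the t-test Fcgr4 no longer passed in PT + HS or in injured mice. Leaving out an array in turn gave counts of 4 to 5 for PT + HS against Ctrl, 2 to 4 for PT against Ctrl (2 without PT replicate 1 or Ctrl replicate 2), 0 to 3 for PT + HS against PT (3 without PT replicate 1, 1 without PT + HS replicate 2) and 3 to 5 for injured mice (3 without Ctrl replicate 2 or 3). Fcgr4 in injured mice no longer passed without Ctrl replicate 2 (0.82), Ctrl replicate 3 (0.64), PT replicate 1 (0.74), PT + HS replicate 1 (0.67) or PT + HS replicate 3 (0.87).

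With the replicate number as a block, Fcgr4 passed between PT + HS and PT (0.80, unadjusted p = 0.00935), which gave a count of 1, and no other call of the 7 genes changed. The numbers name samples and are not stated to pair them. The deviations of 9 same-numbered pairs correlated at -0.12 to 0.48, with 3 above 0.1. With 3 arrays per group these correlations cannot decide whether the mice were paired.

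Array weights put 86.9% of the PT weight on PT replicate 1. With them the differences of PT from Ctrl were 2.83 for Fcgr1, 1.61 for Fcgr2b and 0.85 for Fcgr4, which then passed. They changed the sign between PT + HS and PT for Fcgr1 (-0.88), Fcgr3 (-0.18), Fcer1g (-0.024), Fcgr2b (-0.31), Fcer2a (0.31) and Fcgrt (0.31), and of Fcer1g in PT against Ctrl (0.30), as did repeated quantile normalization (0.062). Leaving out an array in turn, Fcer1g in PT ranged from -0.23 to 0.12 and Fcgrt in PT from -0.29 to 0.068, and between PT + HS and PT Fcgr1 ranged from -0.55 to 1.0, Fcer2a from -0.46 to 0.50 and Fcgrt from -0.30 to 0.061. Of the further probe sets, a choice made after the data had been seen, 1447622_at of Fcgr2b gave -0.026 in PT + HS against Ctrl and -0.12 between PT + HS and PT, and 1451713_a_at of Fcer2a gave 0.13 between PT + HS and PT. The cause of these changes was not tested. Of 355 counts of genes of the lists, 86 moved by over 1.5 times; with the t-test the count in PT was 1 for other Fc receptors and 0 for regulators.

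The adjusted p went under 0.05 in 18 of the 497 cases. In PT against Ctrl it did so with array weights alone, for Fcgr1 (0.032), Fcgr3 (0.0057), Fcgr2b (0.017) and Fcer2a (0.011). For Fcgr3 it ranged from 0.015 to 0.966 in PT + HS against Ctrl and from 0.0057, with array weights, to 1.0 in PT against Ctrl.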
